A study of Mus musculus with 2 samples.

Results

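Binding of the transcription factor Myb was mapped by ChIP-Seq at 10 genes of the Bcl2 family in Lin– cells from the bone marrow of WT mice. The genes fall into 3 survival members (Bcl2, Bcl2l1 and Mcl1) and 7 death members, of which Bax and Bak1 are effectors and Bcl2l11, Bid, Bad, Bbc3 and Pmaip1 are BH3-only genes. A Myb summit, the position of highest enrichment in a called peak, was counted when it lay in the gene body or within 50 kb of it in the GENCODE vM21 annotation (build mm10). By this rule 80 of the 25793 summits in the peak list belonged to the family, 27 to the survival members and 53 to the death members, and no summit was shared by 2 members. The experiment consisted of 1 library precipitated with an antibody against Myb and 1 control library precipitated with normal rabbit IgG, both from WT Lin– bone marrow cells with a stated purity above 80%. In the study's methods, WT denotes Ep300fl/fl mice without Cre, which were injected with poly(I:C). Those methods do not state whether the mice of these libraries were injected, or their age. Lin– cells are marrow cells depleted of those carrying markers of mature blood lineages, a mixture of stem and progenitor cells of many kinds, so a summit cannot be assigned to a cell type within it. Because each antibody had 1 library, no difference below has a replicate check and no p-value is given. Intervals, except those of medians, are 95% intervals for counting error only: exact Poisson for reads and summits, with the IgG background taken as exact, and exact Clopper-Pearson for shares. The interval after a median fold enrichment reflects the spread over the summits of that set. Summits are not replicates, so such an interval does not measure a difference between groups.

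The Bcl2 family controls the mitochondrial pathway of apoptosis. Bcl2, Bcl2l1 (the gene of Bcl-xL) and Mcl1 keep the outer mitochondrial membrane intact, Bax and Bak1 form the pores that release cytochrome c, and the BH3-only proteins Bim (Bcl2l11), Bid, Bad, Puma (Bbc3) and Noxa (Pmaip1) carry the death signal by engaging the other members. Mcl1 and Bcl2l1 are known to be needed for survival of blood stem cells and of developing red cells, respectively, whereas Puma and Noxa are classical targets of p53. Myb itself is a transcription factor required for definitive hematopoiesis that binds DNA through a short recognition sequence. It was searched on either strand as 4 words, here called the Myb motif: CAACTG (as beside Ccdc9), TAACTG (as in the Mcl1 3′ UTR), TAACGG (as beside Nucb1) and, as the last of them, CAACGG.

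The sequences under the summits are shown first, since the motif content differed between the strongest sites. The first group gives the bases within 50 bp of the strongest summit of the BH3-only genes (Bbc3), of that of the survival genes (Bcl2l1) and of the strongest Bcl2l11 summit. They were read from the mm10 reference on the plus strand, 5′ to 3′, with every Myb motif in capitals. Only the Bcl2l11 window carried the motif, 22.5 bp from the summit. The strongest summit at Pmaip1 (17.90-fold) and that of the effector genes, in the Bak1 window (10.21-fold), are not shown and had no Myb motif. The Bbc3 window, the most enriched of the family, had no Myb motif but held both the Ets word CCGGAA and the Spi1 word GAGGAA.
Bbc3 upstream summit, chr7:16294965-16295065: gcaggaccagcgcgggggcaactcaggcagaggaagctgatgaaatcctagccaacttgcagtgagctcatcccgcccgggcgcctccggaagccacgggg
Bcl2l1 downstream summit, chr2:152741789-152741889: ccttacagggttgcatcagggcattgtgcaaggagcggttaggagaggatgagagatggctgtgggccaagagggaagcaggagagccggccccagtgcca
Bcl2l11 downstream summit, chr2:128167169-128167269: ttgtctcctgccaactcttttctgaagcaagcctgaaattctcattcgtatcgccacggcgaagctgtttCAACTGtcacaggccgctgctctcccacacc

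The second group gives 7 of the other 8 summits with a Myb motif (the one at Pmaip1 is not shown), again with the motif in capitals. Where the window touched a UTR, only the motif and 10 bases to either side are shown. The summits at the Bcl2l11 noncoding exon (2.91-fold, 10 reads) and beside Tpx2 (2.94-fold, 14 reads) had a q-value above 0.05. The summit in the Bid window held 4 separate Myb motifs, the most at any summit of the family, and the TAACTG in the Mcl1 3′ UTR was centered at -1.5 bp from its summit.
Bid window, within Bcl2l13, chr6:120841931-120842031: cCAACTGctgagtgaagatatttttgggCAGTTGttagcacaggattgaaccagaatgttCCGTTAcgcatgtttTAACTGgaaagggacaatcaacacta
Bcl2l11 noncoding exon, chr2:128129221-128129321: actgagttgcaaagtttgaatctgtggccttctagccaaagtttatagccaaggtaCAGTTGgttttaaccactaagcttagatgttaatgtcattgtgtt
Mcl1 downstream summit, chr3:95693950-95694050: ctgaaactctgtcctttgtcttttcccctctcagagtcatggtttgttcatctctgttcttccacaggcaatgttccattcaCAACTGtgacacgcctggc
Bax window, beside Nucb1, chr7:45510457-45510557: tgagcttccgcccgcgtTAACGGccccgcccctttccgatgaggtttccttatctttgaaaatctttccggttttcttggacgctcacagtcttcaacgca
Mcl1 3′ UTR site, chr3:95662420-95662445: aagccactggTAACTGaaggtattta
Bcl2l1 window, beside Tpx2, chr2:152848022-152848047: tcaaccgtacCAGTTGagtcctgacg
Bbc3 window, beside Ccdc9, chr7:16275551-16275576: aagcaggcacCAACTGcccttctctg

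The strength of a summit is given as the deposited fold enrichment, the Myb read pileup over the local IgG background, and as the number of Myb reads that piled up there, which was worked back from the fold enrichment and the p-value. Summits in the whole list rested on 7 to 130 reads with a median of 18, and those at the family genes on 10 to 73 reads with a median of 23. The median fold enrichment was 4.89 (4.23–6.0) at the family summits, beside 4.51 over all summits. Of the 80 family summits, 4 had a q-value above 0.05, which was also true of 7.24% of the whole list, although the methods of the study describe a q-value limit for peak calling. As a check of the cells, all 7 genes of blood progenitors examined had a summit (Hhex, 29.97-fold, and Runx1, 20.21-fold, were the strongest), whereas 2 of 7 genes of other tissues had one. Binding is not expression, and no RNA was measured in these libraries.

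All 10 family genes had at least 5 Myb summits in the gene body or within 50 kb. Over all 21938 protein-coding genes, 68.7% had any summit in such a window and 28.1% had at least 5. The number of summits ran from 5 at Bcl2 and Bak1 to 12 at Mcl1. All 10 had a summit with a −log10 q of at least 5, beside 55.0% of protein-coding genes, and 8 of 10, all but Bax and Bid, had a summit of at least 10-fold, beside 11.8%. The thresholds of 5 summits and 10-fold were chosen after the values were seen, and the 10 genes were themselves picked with results of these data known.

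**Figure D1:**
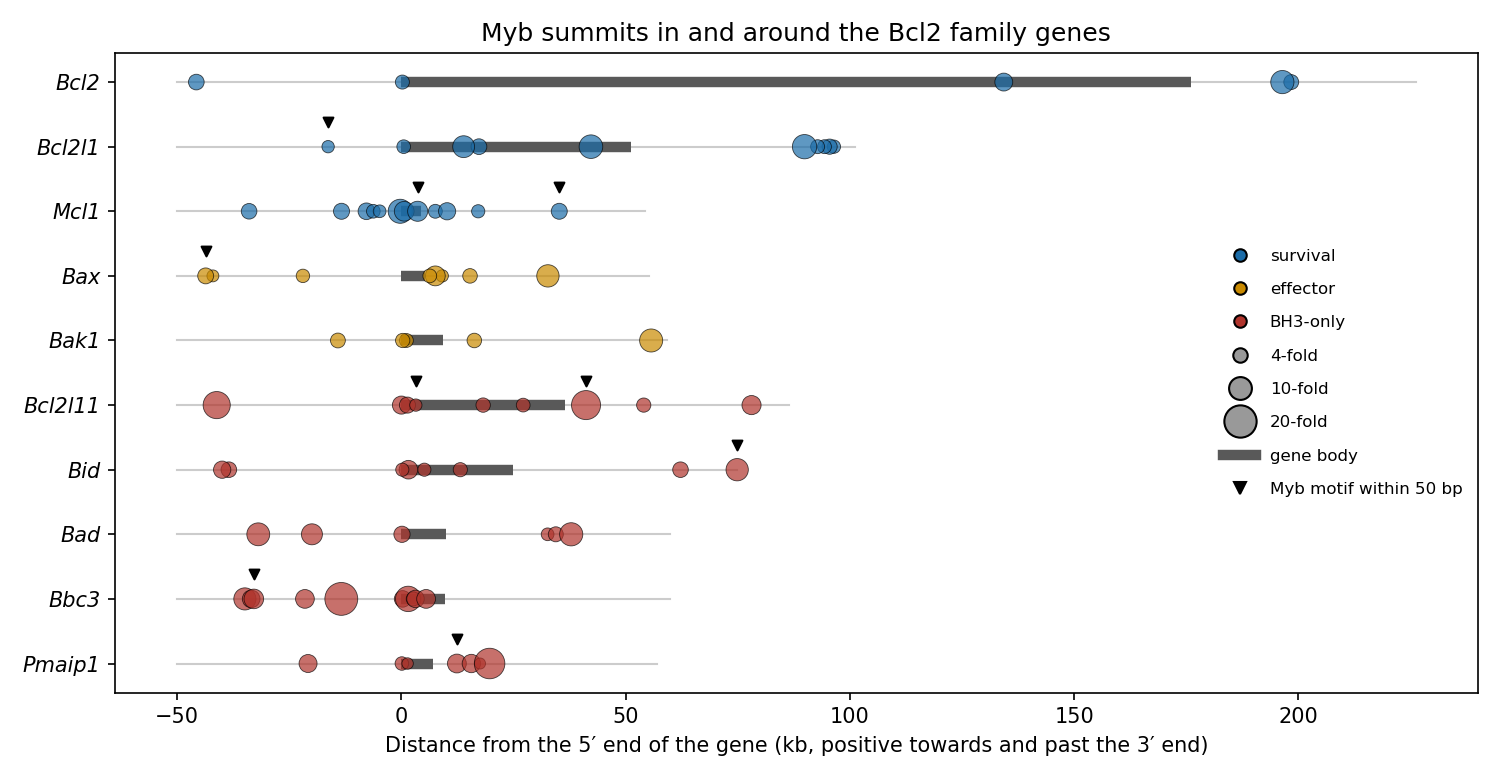
Position of each of the 80 Myb summits relative to the 5′ end of its gene in kb, 1 row per gene, with circle area proportional to fold enrichment, color showing the class, a grey bar for the gene body and a black triangle for a Myb motif within 50 bp. The largest circles, at Bbc3 (20.75-fold), Pmaip1 (17.90-fold) and Bcl2l11 (16.22-fold), lie outside the gene bodies, and the 2 summits in the long body of Bcl2 lie near its start and in its intron.

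The genes differ in length, so summits were divided by the length of gene body and flanks searched. Mcl1 had the highest density, 11.50 summits per 100 kb (5.94–20.08), above 97.8% of protein-coding genes. Bbc3 was next with 9.11 (4.37–16.75), followed by Bax with 7.60 (3.28–14.98). Bcl2l1, Bcl2l11, Pmaip1 and Bid lay close together, between 6.40 and 6.62. Bad had 5.45 (2.00–11.87), Bak1 4.58 (1.49–10.69) and Bcl2 1.81 (0.59–4.23), the lowest. The intervals overlapped for 43 of the 45 pairs of genes, so these counts do not settle the order of neighbors. Overlap does not show that a pair had the same density. The pairs without overlap were Bcl2 against Mcl1 and Bcl2 against Bbc3. The median protein-coding gene had 1.52 summits per 100 kb, and the median gene with a promoter summit of its own had 3.58. Of the family, 9 genes were above the upper quartile of protein-coding genes (3.77), and 7 were above the upper quartile of genes with a promoter summit (5.88).

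**Figure D2:**
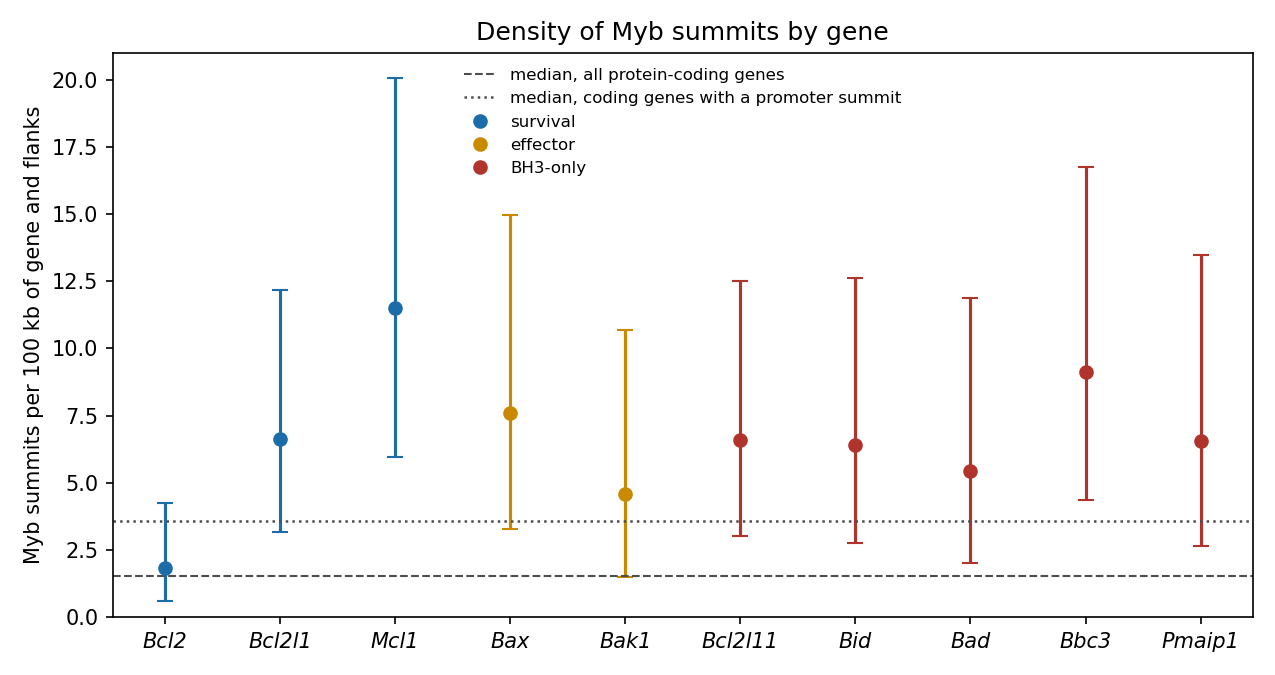
Myb summits per 100 kb of gene body and 50-kb flanks for each gene, with exact 95% Poisson intervals as bars and medians of protein-coding genes as horizontal lines. Bcl2 (1.81) lies near the median of all protein-coding genes (1.52), and the other 9 genes lie between 4.58 and 11.50, above the median of genes with a promoter summit (3.58).

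Among the survival genes, Mcl1 (chr3:95658788-95663176, plus strand) was the one whose strongest summit lay at its own promoter. That summit was 246 bp upstream of the start site, with 11.12-fold enrichment (8.20–14.77) from 45 reads. A second summit in the coding exon 572 bp downstream of a start site reached 7.44-fold (5.15–10.44), and another in the 3′ UTR, the one with the printed TAACTG, 7.74-fold (5.26–11.04) from 28 reads. The short gene was thus bound at both ends. Of its other 9 summits, 5 lay upstream at distances of 4.8 to 33.9 kb and 4 downstream, at 3.12-fold to 5.70-fold. For 8 of the 12 summits Mcl1 was the nearest protein-coding gene. The others were nearest to Ensa or Adamtsl4.

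Bcl2l1 (chr2:152780668-152831728, minus strand) showed a weak promoter and strong distal summits. The summit 82 bp from its nearest start site had 3.59-fold enrichment (2.20–5.59) from 17 reads. Intron 2 held 3 summits. The strongest pair stood at 10.70-fold (8.14–13.82) from 56 reads and at 9.18-fold (6.53–12.59) from 36 reads, and their intervals did not overlap that of the promoter summit. The other, at 4.76-fold (2.88–7.51), did overlap it. The strongest of the 3 was 39.1 kb from a Bcl2l1 start and slightly nearer, at 34363 bp, to the start of Cox4i2. The strongest summit of the window, 11.33-fold (8.23–15.25) from 41 reads, lay 38.8 kb past the 3′ end of Bcl2l1. It was 5588 bp from the start of Id1, an inhibitor of basic helix-loop-helix factors, and 4 more summits of 3.41-fold to 4.45-fold surrounded the Id1 start. These 5 summits, of 10 in all, cannot be told apart from summits of Id1 by position.

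Bcl2 (chr1:106538178-106714274, minus strand) is the longest gene of the family and held the fewest summits for its length. Its promoter summit, 238 bp downstream of a start site in the 5′ UTR, had 3.79-fold enrichment (2.22–6.14) from 14 reads. A summit in intron 1 reached 6.15-fold (3.86–9.38) from 19 reads. The strongest, 10.35-fold (7.52–13.93) from 41 reads, lay 20.3 kb past the 3′ end, with a neighbor of 4.27-fold at 22.3 kb. Its interval did not overlap that of the promoter summit, and Bcl2 was the nearest protein-coding gene to both. The fifth summit, 4.72-fold, was 241 bp from the start of Kdsr. No Bcl2 summit had a Myb motif within 50 bp.

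Of the effector genes, Bax had no summit nearest to itself and Bak1 had 2 of 5. All 8 summits in the Bax window (chr7:45461697-45466898, minus strand) were within 3 kb of the start of another protein-coding gene, and none was in the Bax body or within 3 kb of a Bax start site. The strongest, 9.59-fold (7.38–12.26) from 61 reads, was 62 bp from the start of Ruvbl2, a helicase gene, and the next, 7.56-fold (5.21–10.66), was 105 bp from the start of Ftl1, which codes for ferritin light chain. The Bax window held the start sites of 9 other protein-coding genes. At Bak1 (chr17:27019810-27029009, minus strand) 2 summits lay at its own promoter, 3.92-fold (2.30–6.36) and 3.71-fold (2.30–5.72). Both also lay in the body of Ggnbp1 and within 3 kb of the start of another protein-coding gene. The strongest in the Bak1 window, 10.21-fold (7.47–13.64) from 43 reads, was 97 bp from the start of Zbtb9. Together the effectors had 2 of 13 summits nearest to the gene itself, beside 15 of 27 at survival and 26 of 40 at BH3-only genes. This low share came from Bax. The 2 of 5 at Bak1 was a larger share than at Bcl2l1 (3 of 10) or Bad (1 of 6), so it was not a trait of the class.

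Among the BH3-only genes, Bcl2l11 (chr2:128126038-128162547, plus strand) stood in a window in which no other protein-coding gene started, and it was the nearest protein-coding gene to all 9 of its summits. The strongest, 16.22-fold (12.40–20.86) from 58 reads, lay 4.7 kb past the 3′ end and ranked 152 in the whole list. The next, 14.16-fold (10.69–18.42) from 53 reads, lay 41.2 kb upstream, in the body of the neighboring gene Acoxl. Of the 3 promoter summits, the highest was 14 bp from a start site, with 6.29-fold enrichment (4.21–9.08) from 26 reads. The intervals of both distal summits lay above that of the promoter. A further distal summit, 41.6 kb past the 3′ end, reached 7.03-fold (4.87–9.86), and the 2 remaining intron summits stayed at 3.64-fold and 3.98-fold.

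Bbc3 (chr7:16308393-16318205, plus strand) carried the strongest summit of the family. It lay 13.4 kb upstream of the gene, with 20.75-fold enrichment (16.34–26.00) from 73 reads, and ranked 31 of 25793. The nearest protein-coding start was that of Ccdc9, at 8220 bp. Bbc3 was also the gene with the most promoter summits: all 5 summits in its body were within 3 kb of an annotated Bbc3 start. Its body is 9.8 kb long with 4 annotated starts, so most of the body lies within that distance of a start. The strongest of these summits, in intron 1, reached 12.39-fold (9.19–16.36) from 47 reads. That interval ended at 16.36 and the interval of the upstream summit began at 16.34. The other 4 promoter summits ranged from 3.81-fold to 6.79-fold. The remaining 4 summits of the window, 6.0-fold to 9.42-fold, were within 3 kb of the start of Ccdc9 or Inafm1.

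Bid (chr6:120891930-120916853, minus strand) had 4 summits in its body, the highest in intron 1 at 1534 bp from a start site, with 6.66-fold enrichment (4.86–8.94) from 42 reads. The strongest in the window, 9.57-fold (6.80–13.12) from 36 reads, was the summit with 4 Myb motifs and lay in the body of Bcl2l13, a further Bcl2 relative. It was 49.9 kb past the 3′ end of Bid, just inside the 50 kb limit. Across the family, 4 summits lay within 5 kb inside that limit and 2 within 5 kb outside it, both of the latter at Bid and nearest to Bcl2l13, at 4.8-fold and 5.46-fold. At Bad (chr19:6941861-6951899, plus strand) 1 of 6 summits was nearest to Bad itself, 151 bp from a start site and 5.06-fold (3.36–7.35) from 25 reads. It also lay in the body of Gpr137, and all 6 summits were within 3 kb of the start of another protein-coding gene. The Bad window held the starts of 13 other protein-coding genes, and the stronger summits stood at Fkbp2 (10.33-fold, 133 bp from the start), Prdx5 (10.05-fold, 4 bp) and Esrra (8.46-fold, 125 bp).

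Pmaip1 (chr18:66458533-66465565, plus strand) resembled Bcl2l11 in that no other protein-coding gene started in its window and all 7 summits were nearest to it. Its promoter summits were weak, at 3.52-fold (2.16–5.49) from 17 reads and 2.51-fold (1.49–4.01) from 15 reads, the latter with a q-value above 0.05. A cluster of 4 summits lay 5.4 to 12.6 kb past the 3′ end. The outermost of these was the second strongest of the family, 17.90-fold (13.62–23.12) from 56 reads, and ranked 84 in the list. The others of the cluster had 6.82-fold, 6.50-fold and 2.35-fold enrichment, the last with a q-value above 0.05. The fifth distal summit, 20.8 kb upstream, reached 6.23-fold (4.07–9.18).

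**Figure D3:**
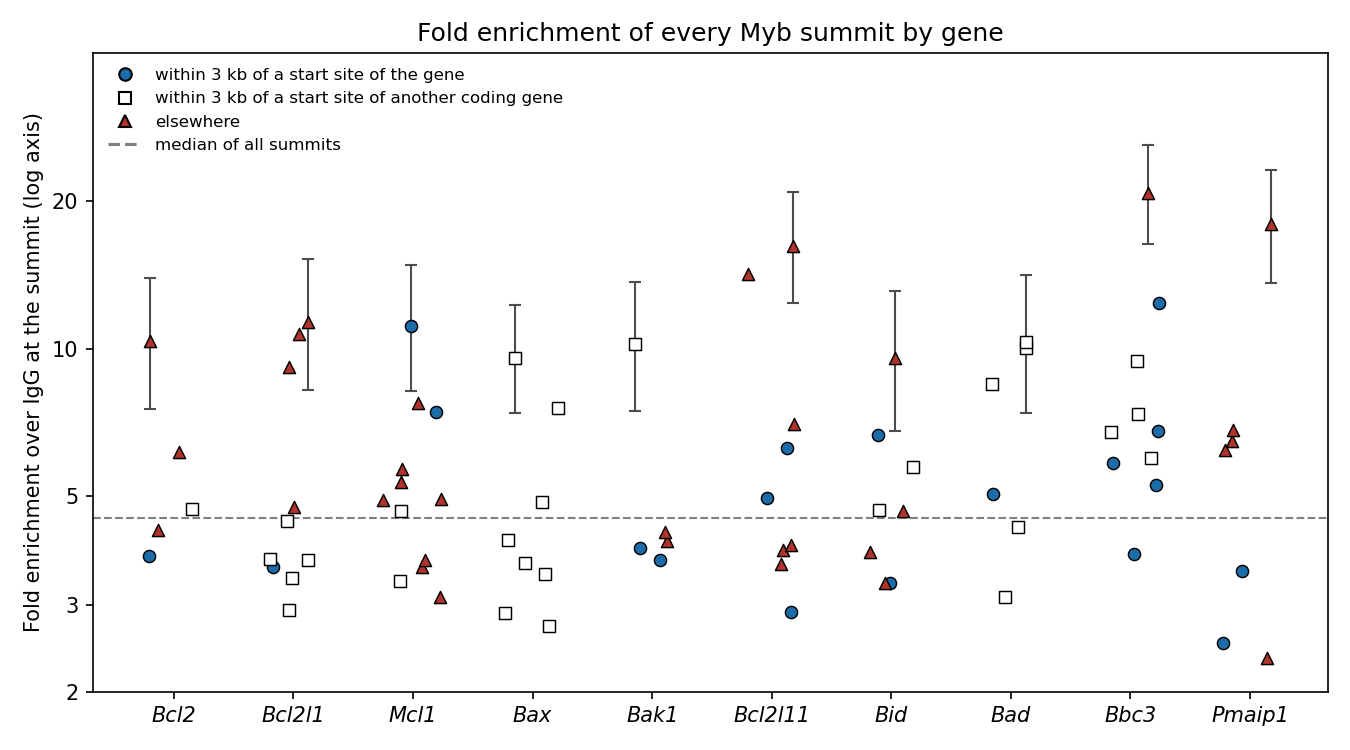
Fold enrichment over IgG (log axis) of each of the 80 summits by gene, with symbols for summits within 3 kb of a start site of the gene, of another protein-coding gene, or elsewhere, the 95% counting interval on the strongest summit of each gene, and a dashed line at the median of all summits (4.51). At Bbc3, Pmaip1 and Bcl2l11 the strongest summit lies away from any coding promoter, at Mcl1 it is a promoter summit, and at Bax, Bak1 and Bad it lies at the promoter of another gene.

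Ordered by the fold enrichment of their strongest summit, the genes ran Bbc3, Pmaip1, Bcl2l11, Bcl2l1, Mcl1, Bcl2, Bad, Bak1, Bax and Bid. The first 3 overlapped one another in their intervals, as did the last 7 (9.57-fold to 11.33-fold). The lower bound at Bbc3 (16.34) was above the upper bound at each survival gene (13.93 at Bcl2, 14.77 at Mcl1 and 15.25 at Bcl2l1), whereas the intervals at Pmaip1 and Bcl2l11 overlapped those of the survival genes. The order depended on the measure. By the highest read number at a summit, Bbc3 (73) was followed by Bad (64), Bax (61), Bcl2l11 (58), and Bcl2l1 and Pmaip1 (56 each). With summits nearest to another protein-coding gene set aside, the strongest remaining were 17.90-fold at Pmaip1, 16.22-fold at Bcl2l11, 12.39-fold at Bbc3, 11.12-fold at Mcl1, 10.35-fold at Bcl2, 9.18-fold at Bcl2l1, 6.66-fold at Bid, 5.06-fold at Bad and 3.92-fold at Bak1, and Bax had none. In this order the survival genes lay in the middle, and some death genes overlapped them while others did not. The intervals at Bcl2l11 (12.40–20.86), Bbc3 (9.19–16.36) and Bid (4.86–8.94) each overlapped those of all 3 survival genes. The interval at Bak1 (2.30–6.36) lay below all 3, and that at Bad (3.36–7.35) below Mcl1 and Bcl2. The interval at Pmaip1 (13.62–23.12) lay above that of the 9.18-fold summit at Bcl2l1 (6.53–12.59). The 10.70-fold summit in Bcl2l1 intron 2 was among those set aside, being nearest to the start of Cox4i2. Counted over the family, 43 summits were nearest to a family gene and 37 to another protein-coding gene.

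A promoter summit, defined as one within 3 kb of a start site of the gene itself, was found at 9 of 10 genes, all but Bax. The share over all protein-coding genes was 39.9%. Promoter summits made up 19 of the 80, 4 of 27 at survival genes (14.8%) and 15 of 53 at death genes (28.3%), and 5 of the 15 were at Bbc3. The number of annotated starts, from 2 at Bcl2 and Mcl1 to 9 at Bcl2l1 and Bad, was not adjusted for. Of the 9 genes with a promoter summit, 8 had their strongest summit elsewhere, Mcl1 being the exception. This share was near the background, since 71.7% of the protein-coding genes with a promoter summit and at least 5 summits had their strongest elsewhere too. The median fold enrichment was 4.97 (3.59–6.66) at promoter summits and 4.87 (4.27–6.23) at the other 61. Of the 12 summits of at least 10-fold, 10 were not at the promoter of the family gene.

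How survival and death genes compared in the amount of Myb binding depended on the window and on Bcl2. The survival genes had 9.0 summits per gene and the death genes 7.57, but per 100 kb searched the survival genes had 5.08 (3.35–7.39) and the death genes 6.60 (4.95–8.64). The ratio of the densities, survival over death, was 0.77 (0.47–1.25) in this window of 50 kb, an interval that includes equality. In the gene body alone it was 0.19 (0.07–0.45), from 3.46 summits per 100 kb (8 summits) against 18.50 (19 summits). It was 0.25 (0.10–0.57) within 3 kb, 0.45 (0.22–0.89) within 10 kb and 0.62 (0.40–0.95) within 100 kb. In these 4 windows, which are nested, the pooled survival genes had fewer summits for their length. The intervals cover counting error of pooled summits only. They leave out the spread between genes, from 1.81 per 100 kb at Bcl2 to 11.50 at Mcl1 within 50 kb, so they do not test the groups. Bcl2 supplies most of the gene body searched at survival genes. Without it the ratio was 1.3 (0.76–2.18) within 50 kb, 0.58 (0.19–1.52) in the gene body, 0.72 (0.26–1.75) within 3 kb, 1.17 (0.54–2.41) within 10 kb and 0.92 (0.56–1.44) within 100 kb, and all 5 intervals included equality. Without Mcl1, the gene with the highest density, it was 0.53 (0.28–0.96) within 50 kb and between 0.14 and 0.43 in the other windows. The median fold enrichment was 4.72 (3.71–6.15) at survival and 5.06 (4.06–6.66) at death summits, with the spread over summits in brackets. This order turned when the gene body alone was searched, 6.79 against 3.92, or when summits needed a −log10 q of at least 5, 7.59 against 6.82. Within the death genes the effectors had a median of 4.06-fold (3.47–7.56) over 13 summits and the BH3-only genes one of 5.93-fold (4.67–6.79) over 40. Summits of at least 10-fold made up 14.8% of survival and 15.1% of death summits, beside 4.47% of the whole list.

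The Myb motif was present within 50 bp of 9 of the 80 family summits, 11.2% (5.3–20.3). Over all 25793 summits the share was 16.7%, inside that interval. Windows of the same length 500 bp to either side held it in 6.2% at the family genes and 10.5% over all summits. The share was 11.1% (2.4–29.2) at survival genes and 11.3% (4.3–23.0) at death genes. Of the family summits of at least 10-fold, 1 of 12 had the motif, the one downstream of Bcl2l11, or 8.3% (0.2–38.5). In the whole list 29.5% of the summits of that strength had it, again inside the interval. The motif was found at 1 of 19 promoter summits and at 8 of the other 61, which is 13.1% (5.8–24.2). The 1 promoter summit, in the Bcl2l11 noncoding exon, had a q-value above 0.05. With summits limited to a q-value of at most 0.05, the share over the family was 9.2%. The letters searched are a description: a window without them says nothing about whether Myb was there.

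**Figure D4:**
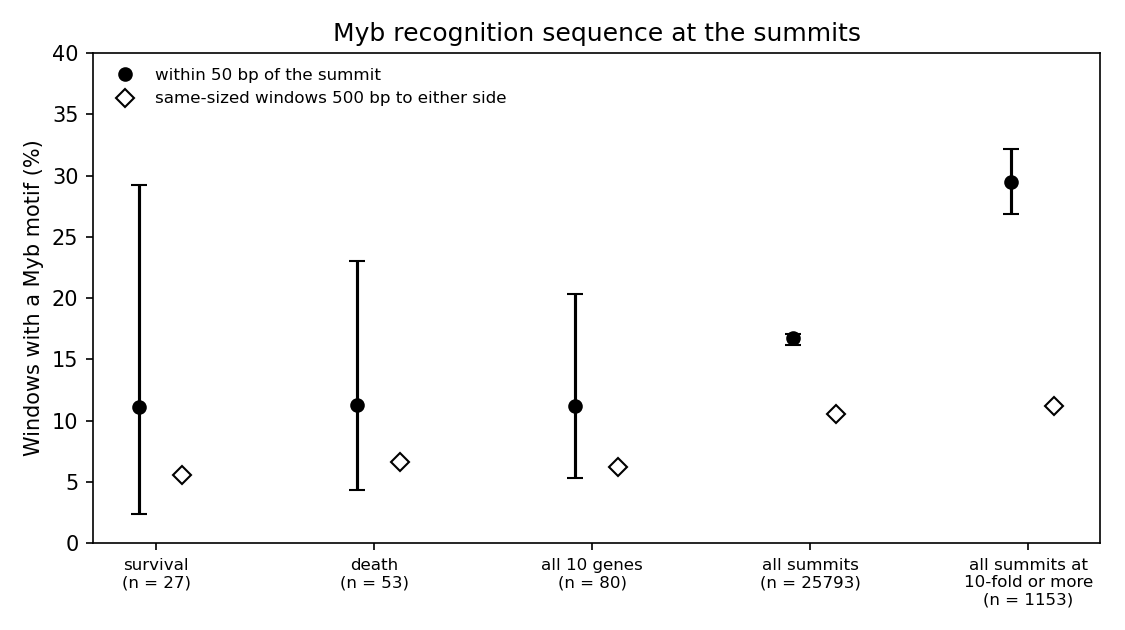
Percentage of windows within 50 bp of a summit that hold a Myb motif (filled circles, exact 95% binomial intervals) and the same in windows 500 bp to either side (open diamonds), for survival genes, death genes, all 10 genes, all summits and all summits of at least 10-fold. The intervals of the survival (11.1%) and death (11.3%) summits overlap and both include the share over all summits (16.7%).

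Words of other blood transcription factors were also counted in the same windows on either strand. The Runx word TGTGGT was at 3 of 80 family summits, 3.8% (0.8–10.6), beside 9.8% of all summits. The Gata words AGATAA or TGATAA were at 10% (4.4–18.8) beside 13.8%, and the Spi1 word GAGGAA at 6.2% (2.1–14.0) beside 12.0%. The Ets word CCGGAA was at 3.8% beside 3.9%, and the C/EBP word TTNCNNAA at 17.5% (9.9–27.6) beside 23.1%. All of these shares over all summits lay inside the family's intervals. The family windows were richer in G and C, with a median of 53.0% against 48.5%, and the part of this in the motif counts was not tested. In RefSeq promoter windows (GRCm38.p6), from 250 bases before to 50 bases after a start, 1 of 3 Bcl2l1 windows held the Myb motif and none of the other family windows matched did, beside 28.3% of all such windows; Pmaip1 had no entry.

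The pathway around these 10 genes was counted in the same way. Of 11 other Bcl2 family genes, 7 had a summit in the gene body or within 50 kb and 1 had a promoter summit, Bnip3l, a mitophagy receptor gene, at 7.26-fold. The first share is near the 68.7% of all protein-coding genes with a summit, and for promoter summits the share over all was 39.9%. Bik (6.65-fold) and Bcl2l10 (5.12-fold) followed, and the survival gene copies Bcl2a1a, Bcl2a1b and Bcl2a1d and the BH3-only gene Hrk had no summit. The median density was 1.93 per 100 kb in this list, beside 6.57 for the 10 family genes described here. Reads from the near-identical Bcl2a1 copies are hard to place on one copy, so their lack of summits is uncertain. A list of 16 other genes of mitochondrial apoptosis and its regulators, among them Trp53 (p53), Mdm2 and Casp8, was counted too. All 16 had a summit within 50 kb and 15 a promoter summit, with a median density of 4.02 per 100 kb, beside 68.7%, 39.9% and 1.52 over all protein-coding genes. The strongest were in the windows of Cycs (cytochrome c, 13.53-fold), Diablo (Smac, 11.23-fold at its promoter) and Vdac2 (10.30-fold at its promoter), and Cycs was the one without a promoter summit.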

How the data were processed

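Myb and normal rabbit IgG ChIP-Seq libraries (1 each) were made from WT Lin– bone marrow cells; the analysis used the Myb peak list, in which the IgG library enters as the background. Per the labels and the study's methods, the authors used cutadapt 1.15 for trimming and BWA 0.7.13 for alignment to mm10, removed duplicates with Picard, and called narrow peaks with MACS2 2.1.1.20160309 against IgG, keeping peaks that overlapped between pseudo-replicates of the single library, with a stated limit of q below 0.05. The deposited list also holds rows above that limit (7.24%), and all rows were kept. Pseudo-replicates share their cells and are not biological replicates. The deposited values are the fold enrichment (a ratio) at each summit, its −log10 p-value and −log10 q-value, and a score that restates the p-value and was not used. Depth per library was not given in the sources used here.

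Reads at a summit were recovered from the fold and the p-value (tolerance 0.002 on −log10 p). A whole number was found for 100% of summits, with more than 1 match for 1.26%, and for 4.5% of 200 summits whose fold was shifted on purpose. The method was tested on simulated data. PCR reads are not independent molecules, so intervals other than those of medians cover counting error only and leave out the error of the IgG background. Intervals of medians reflect the spread over summits. The summit was the peak start plus the deposited offset. Genes came from GENCODE vM21, promoters were 3 kb around any annotated start of the gene, and the nearest gene was that of the nearest protein-coding start. Sequences came from the RefSeq GRCm38.p6 genome. Tools were Python 3.11.15 with pandas 2.3.3, scipy 1.17.1, pysam 0.24.0 and matplotlib 3.10.9.

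All 10 genes were named, each with its strongest summit, together with the nearest gene where it was another; of the lists of other family and pathway genes, the 3 with the highest fold were named. The members, lists and thresholds were chosen with earlier results of these data known. Alternatives covered the q-value threshold, the window, the promoter and motif definitions, the measure of strength, and leaving out Bcl2, Bcl2l11 or Mcl1. Those with a q-value limit of 0.05, without Mcl1, and with the density ratio in other windows with and without single genes were chosen after seeing the data.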

Additional observations from a re-analysis of the deposited data

How the results depend on the processing

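Each of 8 summary values was recomputed under the alternatives, 77 recomputations in all: 45 stayed within 1.5 times or their interval with the same direction, 27 moved and 5 turned direction. With a −log10 q of at least 5 there were 43 summits (12 survival, 31 death) and 5 genes with a promoter summit, a density difference (survival minus death, per 100 kb) of -1.60 and a difference in median fold of 0.78. In the gene body alone there were 27 (8 and 19), with differences of -15.04 and 2.87. Within 3 kb there were 30 (9 and 21), with -10.90 and 3.52, and within 10 kb 40 (14 and 26), with -5.91 and 1.50. Within 100 kb there were 121, of which 90 were at death genes. Only summits nearest to the gene itself numbered 43 (15 and 28), with a density difference of -0.67. The main differences were -1.52 and -0.34, so the fold difference turned in 4 of these settings. Without Bcl2 the density difference turned to 2.01. Strength measured as −log10 q gave a difference of -2.32, and as reads -5.00. A Myb motif within 100 bp was found at 25.0% of family summits and the shorter word AACNG within 50 bp at 46.2%. No paired analysis was possible because each antibody had 1 library, and no library could be left out. The limits are the single Myb library, read numbers of 10 to 73 per family summit, a control that enters only through the authors' calls, and the assignment of summits to genes by distance, which cannot tell which gene a summit acts on.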
